A study of Mus musculus with 6 samples.

Results

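C2C12 cells, a mouse myoblast line, were compared in 0.2% FBS with and without added exosomes, which covers 3 of the 6 libraries of the series: 1 of 0.2% FBS alone, numbered 2 in its label, and 2 of 0.2% FBS + exosome, numbered 2 and 3. They were taken by their labelled serum and treatment and not by any measured value. The numbers in the labels run on from the libraries of 2% horse serum, and the labels do not say that they mark a batch or pair. Of 20950 entries in the expression table, 10726 genes that averaged 1 FPKM or more over the 6 libraries were compared, FPKM being fragments per kilobase of transcript, scaled to the mapped fragments of each library. At that limit, Sfxn5 lay just inside with a mean of 1.00 FPKM and changes of 0.45 and 0.58, and Nov lay just outside with a mean of 0.998 FPKM and changes of -0.60 and 0.22. A change here is the difference of log2(FPKM + 1) from the control library, given for exosome replicate 2 and then for exosome replicate 3, and it understates the ratio for genes of low level.

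The cells compared here were grown in 10% FBS to partial confluence before the serum was lowered. Their groups are told apart by the added exosomes, a fraction prepared from fetal bovine serum with precipitation kits. The comparison asks what serum exosomes do to cells brought to differentiate by low serum. The other libraries were cells in 10% FBS, in 2% HS (horse serum) and in 2% HS + exosome, 1 each. The labels do not say that the libraries came from separate cultures, so p-values speak for these libraries only. Their error comes from both exosome libraries and from a trend over all genes, and not from the control. With 1 control library, the spread between controls is unknown, and both exosome libraries are compared with the same control.

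When serum is withdrawn, myoblasts leave the cell cycle, turn on the transcription factors of the MyoD and MEF2 families and fuse into myotubes that assemble sarcomeres and the membrane system that couples excitation to contraction. During this switch many enzymes and cytoskeletal proteins of all cells are replaced by forms encoded by separate muscle genes. Exosomes are small vesicles released by cells and abundant in serum, and receiving cells take them up largely into endosomes and lysosomes.

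The summed FPKM of 8 skeletal muscle markers was 1.15e+04 in the control and 5.2e+03 and 3.91e+03 in exosome replicates 2 and 3, against 5.21e+03 in 10% FBS. Smooth muscle markers, some of which myoblasts also express, summed to 2.44e+03, 1.95e+03 and 1.53e+03 FPKM. Markers of endothelial cells summed to at most 0.264 FPKM and those of red cells and liver to at most 0.199 FPKM in these 3 libraries. A sum over 10 platelet and megakaryocyte markers was 12.4 FPKM in the control and 22.5 and 33.1 FPKM with exosomes, with Treml1 and Clec1b at 0 in all 3. For 8 macrophage markers the sums were 5.95, 8.89 and 9.54 FPKM, with Emr1 at 0 and Cd14 highest (2.87, 5.33 and 6.13 FPKM). For 7 osteoblast markers they were 8.64, 13 and 15.7 FPKM. Adipocyte (3.27, 3.47 and 3.98 FPKM), chondrocyte (5.07, 6.92 and 6.65 FPKM) and neuron or glia markers (9.75, 4.56 and 2.89 FPKM) were low as well. Most of the neuron or glia sum was Tubb3 (9.20, 3.85 and 2.21 FPKM), which is also in the list of tubulins. Apart from those of muscle these sums are low in FPKM, but some ratios between libraries are as large as changes reported below, and their part in the results was not tested. In bulk RNA, fewer cells of a type and less RNA of that type per cell cannot be told apart. The depths, estimated from the spacing of low FPKM values, were 36400000 reads for the control and 35000000 and 33300000 for exosome replicates 2 and 3.

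With exosomes, limma with Benjamini-Hochberg adjustment called 879 of 10726 genes higher (8.2%) and 464 lower (4.33%). The median change over all genes was 0.14, and after each library was scaled to the same 75th percentile it was -0.002, which left 474 genes higher (4.42%) and 730 lower (6.81%). All 464 genes called lower were also lower after scaling, and 474 of the 879 called higher were also higher. "Rose" and "fell" below refer to calls on the FPKM as deposited. Where a named gene was no longer called higher after scaling, its rise is said to have ended, and for many lists the count of calls after scaling is given in parentheses. Counts of rises and falls in every list are to be read against the 8.2% and 4.33% of all genes. The lists were chosen with earlier results of these data known, so these counts are descriptive and not independent tests. The test has 1 residual degree of freedom, from both exosome libraries, so standard errors also rest on limma's trend over all genes. For Kbtbd11 the SD between both exosome libraries was 0.002 and the standard error 0.158. With every entry above 0 kept in place of the limit on low values, limma called 0 genes, with 3120 at an unadjusted p under 0.05.

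Beyond a change of 1 in each exosome library, the count was 96 genes higher (0.895%) and 173 lower (1.61%). Of these, 93 and 163 were also called by limma. In exosome replicate 3 alone, 312 genes were more than 1 higher and 305 more than 1 lower, and in exosome replicate 2 alone 155 and 183. Of the 173 genes that were lower in both, 158 were lower in replicate 3 than in replicate 2. In all, 5921 genes were higher in both exosome libraries, 2955 were lower in both, and 1850 went in opposite directions.

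**Figure D1:**
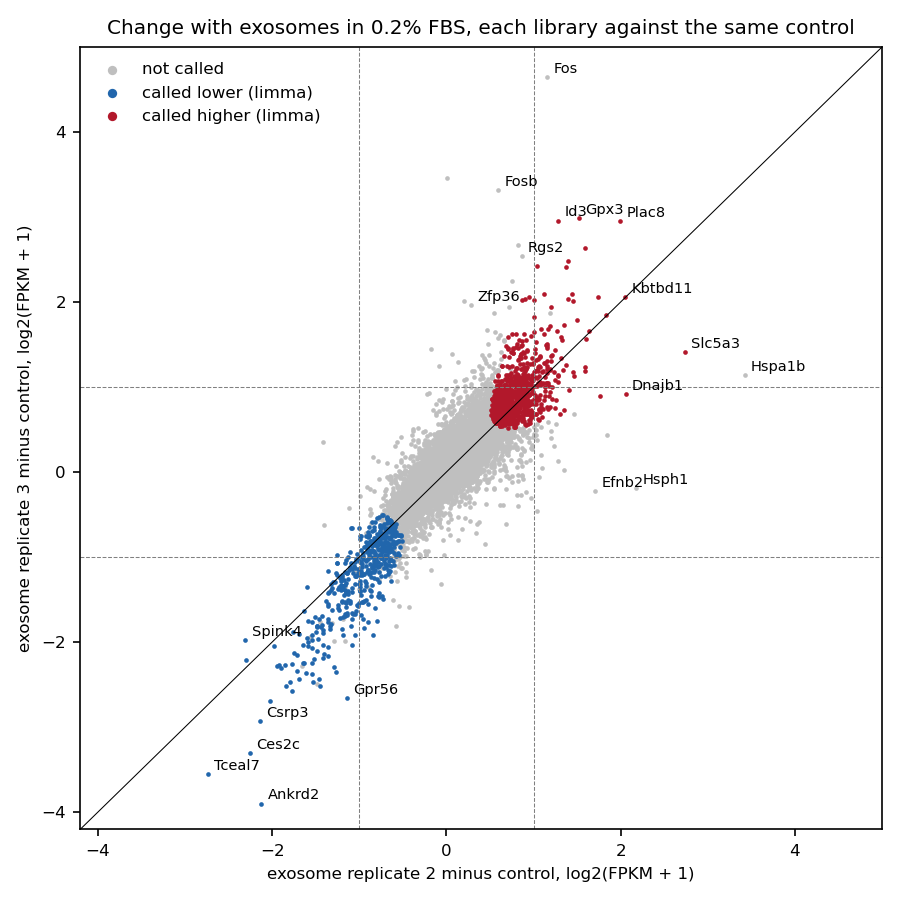
Change of log2(FPKM + 1) from the 0.2% FBS control in exosome replicate 2 (horizontal) and exosome replicate 3 (vertical) for 10726 genes, with genes called lower by limma in blue and higher in red, dashed lines at changes of 1 and -1 and the line of equal change. Tceal7 and Ankrd2 lie lowest, the points of large falls lie mostly below the line of equal change, and Fos, Hspa1b and Hsph1 lie far from it.

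Of the 20 largest falls, 9 were in members of the lists of muscle regulation and structure, which hold 1.62% of all genes tested. Earlier results of these data were known when these lists were chosen, so their share of the largest falls is no independent test. Tceal7, which is in none of them, a transcription elongation factor A-like gene expressed in muscle, stood at 77.1 FPKM in the control and at 10.7 and 5.64 FPKM with exosomes, a mean change of -3.15 ± 0.29 (SE, limma adjusted p = 0.00453). Ankrd2, a titin-binding ankyrin repeat protein that responds to stretch, was at 228, 51.4 and 14.3 FPKM, and among genes called lower with a mean of at least 10 FPKM over these 3 libraries it differed most between both exosome libraries. Csrp3, which encodes the muscle LIM protein of the Z-disc, was at 43.4, 9.08 and 4.84 FPKM (-2.14 and -2.93, adjusted p = 0.00657). In each of these genes both exosome libraries lay below the control, with replicate 3 the lower.

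Among the other genes of the 20 largest falls, the carboxylesterase gene Ces2c, whose fall came between those of Ankrd2 and Csrp3, was at 25, 4.47 and 1.64 FPKM, and Dclk1, a microtubule-associated kinase, at 142, 42.7 and 27.3 FPKM. Murc, the muscle form of the caveolar cavin proteins, was at 173, 44.3 and 34.8 FPKM. Myo18b, an unconventional myosin needed for sarcomere assembly, was at 15.2, 4 and 2.00 FPKM. The set also held Actn2, Lmod2, Myh4, Myh8, Mybph, Smpx and Cox6a2, which are described with their groups. Not all had a muscle role: Chil1, a chitinase-like protein, was at 8.05, 1.39 and 0.873 FPKM and Spink4, a serine protease inhibitor, at 12, 1.62 and 2.31 FPKM. R3hdml, Klhl13, Fam167a and 8430408G22Rik made up the rest, with mean changes between -2.26 and -1.99.

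Of 50 sarcomere genes listed, 45 passed the limit on low values, and 29 of them fell (33 after scaling) and 0 rose, against 4.33% and 8.2% of all genes. Their median change was -1.54 against 0.14 over all genes. In both exosome libraries 44 of 45 were lower, against 27.5% of all genes tested. Among thick filament genes, the fast myosin heavy chain Myh4 was at 35.0, 7.87 and 4.54 FPKM (-2.36 ± 0.26, adjusted p = 0.00649), Myh1 at 35.0, 11.8 and 8.79 FPKM and the perinatal Myh8 at 31.8, 8.64 and 4.50 FPKM. These genes share long near-identical stretches, so the split of reads among them is uncertain. The slow and cardiac heavy chains Myh7 (55.3, 22.8 and 18 FPKM) and Myh6 (10.6, 4.80 and 3.65 FPKM) fell too, so the fall was not confined to the fast forms. The myosin-binding protein Mybph was at 789 FPKM in the control and at 273 and 141 FPKM with exosomes.

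Of the thin filament and Z-disc genes, Actn2, the muscle actinin that cross-links actin at the Z-disc, was at 51.4, 13.1 and 9.62 FPKM (-2.1 ± 0.20, adjusted p = 0.00453). Lmod2 and Lmod3, which nucleate and lengthen thin filaments, were at 108, 29.2 and 21.5 FPKM and at 69.8, 22.5 and 16.8 FPKM. Both exosome libraries lay far below the control for each. The troponins Tnnt3, Tnni2, Tnni1 and Tnnt1, which make contraction sensitive to calcium, fell with mean changes between -1.81 and -1.31. Tcap, which anchors titin, was at 14.2, 3.68 and 3.04 FPKM, and the giant proteins Ttn (43.1, 24.8 and 15.0 FPKM) and Neb (56.7, 29.8 and 18.7 FPKM) fell less, with mean changes of -1.12 and -1.23.

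The most abundant contractile transcripts were as low with exosomes, but the test did not call them. Mylpf, a fast myosin light chain, was at 8128 FPKM in the control and at 2740 and 2118 FPKM with exosomes (-1.75 ± 0.73, adjusted p = 0.144). Tnnc1 was at 4232, 1337 and 867 FPKM (adjusted p = 0.057) and Myl4 at 3120, 1117 and 552 FPKM (adjusted p = 0.0568). Standard errors were larger at this level because limma ties the error to the mean. After scaling Tnnc1 and Myl4 were called lower and Mylpf was not.

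The E-box bound by the MyoD family is printed here because the 3 muscle lists searched for it hold it in more promoters than all genes do. The letters CAGCTG, the same on both strands, occur in the 250 bases before a RefSeq start site (GRCm38.p6) in 41.7% of 36 sarcomere genes with a listed promoter, in 50% of 18 genes of excitation-contraction coupling and in 26.7% of 15 Kelch, TRIM and chaperone genes, against 14.3% of all 8626 genes with one. A match is not a measured binding site. The 3 members with a match and the largest mean change are shown, with the match in capitals and 67, 79 and 106 bases before the start site: Myh4 at chr11:67237720-67237775 on the plus strand, Mybph at chr1:134193344-134193399 on the plus strand and Cav3 at chr6:112459374-112459429 on the plus strand.
Myh4: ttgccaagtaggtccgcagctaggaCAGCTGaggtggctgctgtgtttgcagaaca
Mybph: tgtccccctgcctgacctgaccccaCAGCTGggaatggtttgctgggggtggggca
Cav3: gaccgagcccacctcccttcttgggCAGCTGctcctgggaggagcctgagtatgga

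Genes that couple the action potential to calcium release fell in 20 of 31 measured members of 34 listed (23 after scaling), with 0 rises and a median change of -0.85. Cav3, the muscle caveolin, was at 69.7 FPKM in the control and at 25.8 and 15.0 FPKM with exosomes (-1.77 ± 0.28, adjusted p = 0.0105). Casq2, a calcium store protein of the sarcoplasmic reticulum, was at 556, 231 and 108 FPKM. The channel subunit Cacna1s, the voltage sensor, was at 44.9, 22.7 and 11.8 FPKM, and the release channel Ryr1 at 35.3, 21.4 and 17.5 FPKM. In all of these the control was highest and replicate 3 lowest. The sodium channel Scn4a was at 9.15, 3.72 and 2.55 FPKM and the junctophilin Jph1, which holds both membranes together, at 23.5, 10.3 and 10.0 FPKM. Atp2a2, the calcium pump also found in most other cells, was at 223, 210 and 167 FPKM and was not called.

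Chaperones, ubiquitin ligases and Kelch proteins that build or maintain the sarcomere fell in 15 of 21 measured members of 23 listed, with a median change of -1.24. The E3 adaptors and stabilisers Klhl41 (187, 72.1 and 61.9 FPKM) and Klhl40 (40.6, 17.7 and 13.3 FPKM) fell, as did the membrane repair protein Trim72 (120, 47.4 and 34.0 FPKM). The small heat shock protein Cryab was at 533, 256 and 167 FPKM. Trim63, a ligase of muscle atrophy, was at 27.0, 17 and 14 FPKM, while Fbxo32, the other well-known atrophy ligase, was the 1 member that rose, at 24.5, 47.8 and 53.7 FPKM (1.02 ± 0.17, adjusted p = 0.0133). Both ligases thus changed in opposite directions.

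Among 23 of 26 dystrophin complex and costamere genes, 7 fell and 3 rose. Smpx, a small protein of stretched muscle, was at 82.1, 23.3 and 16.4 FPKM, and Xirp1, an actin-binding repeat protein, at 42.7, 16.1 and 8.77 FPKM. The widely expressed sarcoglycan Sgce rose, at 20.4, 37.5 and 37.4 FPKM, and rises of Lama2 and Tln2 ended after scaling. At the neuromuscular synapse 2 of 18 measured genes fell (4 after scaling) and 1 rose, counts too small to set apart from the 4.33% and 8.2% of all genes. Nes, the intermediate filament nestin, was at 523, 261 and 178 FPKM and Colq, which anchors acetylcholinesterase, at 3.13, 0.871 and 0.818 FPKM, while the synapse organiser Agrn rose from 7.14 to 13.1 and 15.3 FPKM. The acetylcholine receptor subunits Chrna1 (359, 205 and 177 FPKM) and Chrng (377, 221 and 156 FPKM) were called lower only after scaling.

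Muscle enzymes of phosphagen, glycogen and purine metabolism fell in 14 of 23 measured members of 26 listed (19 after scaling), with 0 rises and a median change of -0.93. Cox6a2, the muscle form of a cytochrome oxidase subunit, was at 154 FPKM in the control and at 42.4 and 26.3 FPKM with exosomes (-2.17 ± 0.27, adjusted p = 0.00736). Gys1, muscle glycogen synthase, was at 56.4, 24.5 and 21.8 FPKM and Pygm, which breaks glycogen down, at 76.4, 45.1 and 38.3 FPKM. Mb, which encodes myoglobin, was at 108, 54.0 and 47.4 FPKM. In a list of 27 measured genes of glycolysis and of the response to low oxygen, 0 fell and 2 rose, the glycolytic Eno2 (11.5, 30.0 and 30.8 FPKM) and the stress-responsive Ndrg1 (24.7, 48.8 and 47.4 FPKM). The share of rises was near the 8.2% of all genes, and the list's median change of 0.15 was -0.01 after scaling.

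In 25 pairs of related genes, 1 was scored as the muscle form and 1 as the general form. The share of the muscle form in their summed FPKM was lower in both exosome libraries than in the control in 20 pairs. Some pairs are related genes and not true isoforms, among them Mylpf with Myl6 and Hspb3 with Hspb1, both counted in the 20. Ldhb was scored as the muscle form against Ldha, although Ldha encodes the skeletal muscle subunit, and that pair is not among the 20. The muscle member fell in 12 pairs and rose in 1, and the general member fell in 1 and rose in 2, both of which ended after scaling. Cox6a2 made up 33% of Cox6a1 + Cox6a2 in the control and 11.2% and 5.9% with exosomes, against 10% in 10% FBS. Cav3 made up 64.2% of Cav1 + Cav3 in the control and 28% and 29.6% with exosomes, and Actn2 27.9% of Actn2 + Actn4 and then 7.95% and 6.78%. For Cox6a2, Cav3 and Actn2 the share with exosomes was nearer to that in 10% FBS than to that of the control. Some pairs did not follow: Ckm made up 97.3% of Ckb + Ckm in the control and 97.5% and 96.8% with exosomes, since both genes were lower, and Tln2 made up 6.85% of Tln1 + Tln2 and then 10.4% and 13.7%.

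**Figure D2:**
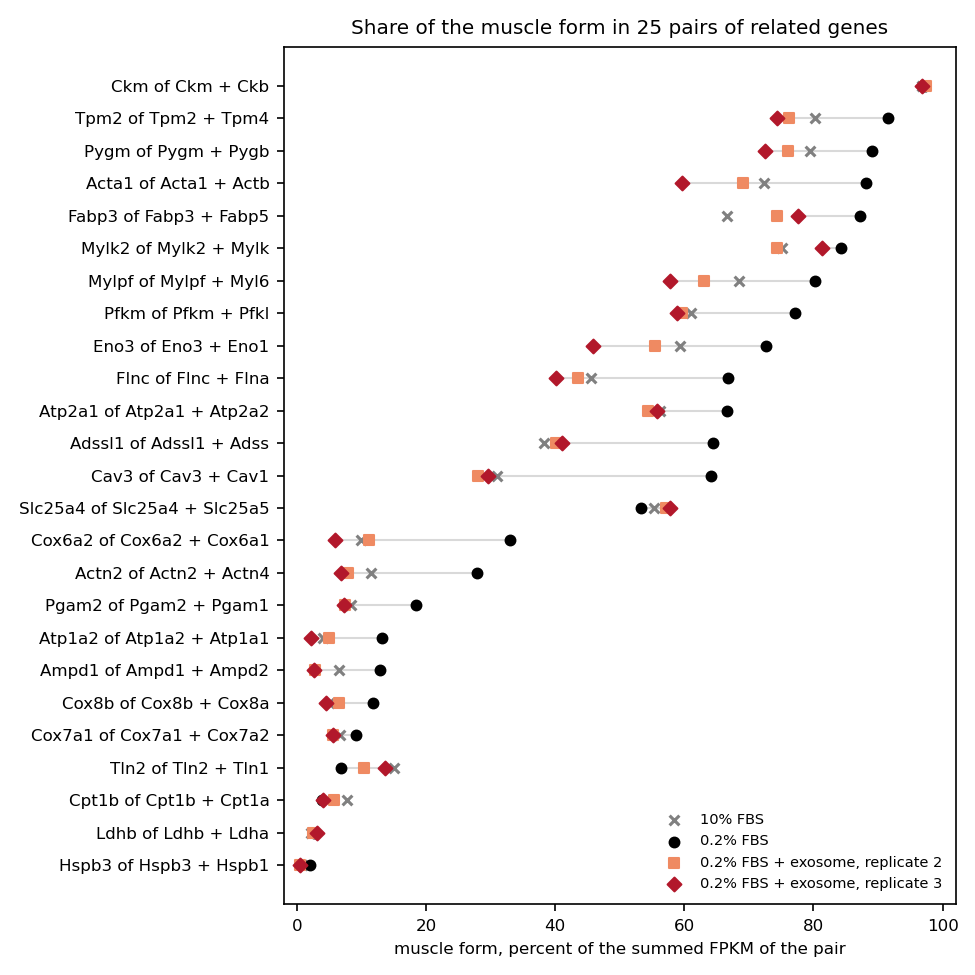
Percent of the summed FPKM taken by the gene scored as the muscle form in 25 pairs of related genes, in 10% FBS (cross), 0.2% FBS (circle) and 0.2% FBS + exosome replicates 2 (square) and 3 (diamond), 1 library each. In 20 pairs both exosome libraries lie to the left of the control, and Cav3 goes from 64.2% to 28% and 29.6%.

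Among myogenic transcription factors, 18 of 24 listed were measured, and 5 fell and 4 rose. Their median change of -0.09 was 0.01 in replicate 3 alone, so the list as a whole had no clear direction. Mef2c, which drives sarcomere genes, was at 13.4 FPKM in the control and at 4.39 and 3.48 FPKM with exosomes (-1.56 ± 0.18, adjusted p = 0.00657). Its partner Smyd1, a muscle methyltransferase, was at 46.6, 18 and 17.2 FPKM, and the RNA-binding splicing factor Rbm24 at 14, 5.33 and 4.77 FPKM. Tead4 and Vgll2, a DNA-binding factor and its cofactor, also fell. Of the 4 that rose, Myf5 was at 5.39, 10.1 and 12.9 FPKM (0.96 ± 0.19, limma adjusted p = 0.0196) and the cofactor Eya1 at 2.98, 6.08 and 7.62 FPKM. Six4 also rose, a call that ended after scaling. The differentiation factor Myog was at 663, 350 and 401 FPKM (adjusted p = 0.12) and was not called, and neither was the determination factor Myod1, with changes of -0.33 and -0.13.

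Of 21 measured of 26 listed genes of fusion and adhesion, 3 fell and 2 rose (5 and 1 after scaling). The share of rises was near the 8.2% of all genes that rose, and 4.33% of all genes fell. Both fusogens fell. Tmem8c, which encodes myomaker, was at 1036, 486 and 327 FPKM (-1.38 ± 0.37, adjusted p = 0.0485) and Gm7325, which encodes myomerger, at 313, 124 and 125 FPKM. The adhesion protein Jam2 fell from 26.2 to 16.5 and 17.2 FPKM. Kirrel, an immunoglobulin receptor of fusing cells, rose from 13.6 to 29.9 and 24.3 FPKM, and the tetraspanin Cd9 from 114 to 191 and 210 FPKM, a call that ended after scaling.

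Tubulins and their partners fell in 6 of 15 measured genes of 16 listed (9 after scaling), with 0 rises. Tubb6, a tubulin that rises early in differentiating myoblasts, was at 810, 370 and 338 FPKM, Tuba4a at 134, 60.4 and 58.0 FPKM and Tuba1a at 661, 289 and 260 FPKM. In each of these genes both exosome libraries were close to each other and far below the control. Tubulin genes are similar in sequence, so the split among them is uncertain.

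Subunits of the respiratory chain and the proteasome were mostly lower by amounts that the test did not call. In the respiratory chain 39 of 48 measured subunits were lower in both exosome libraries, against 27.5% of all genes tested, with a median change of -0.34, but 1 was called, the electron carrier Cycs (72.1, 40.4 and 47.7 FPKM, adjusted p = 0.0447). Of 31 proteasome subunits 29 were lower in both, with a median change of -0.30, and 0 were called (3 after scaling). Ribosomal protein genes had a median change of -0.04 in replicate 2 and 0.38 in replicate 3, with 0 of 65 called. The sign of that shift thus depended on the library.

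Amino acid response genes, the targets of the stress factor ATF4 that import and make amino acids, fell in 13 of 33 measured members of 36 listed (17 after scaling), and 1 rose. Their median change was -0.53. Asns, which makes asparagine, was at 126 FPKM in the control and at 47.6 and 43.4 FPKM with exosomes (-1.45 ± 0.19, adjusted p = 0.00766). The hormone gene Fgf21 was at 127, 45 and 35.5 FPKM and the feedback kinase-like Trib3 at 7.32, 2.71 and 2.97 FPKM. In all of these both exosome libraries were close together, well below the control. The serine pathway genes Phgdh (136, 66.9 and 61.3 FPKM), Psat1 (180, 83.5 and 85.0 FPKM) and Psph (14.6, 8.63 and 7.85 FPKM) fell, as did the mitochondrial folate enzymes Mthfd2 and Aldh1l2 and the transporters Slc7a5, Slc7a1 and Slc7a11. The 1 rise, Ddit4, ended after scaling, and Ddit3, another ATF4 target, was at 26.4, 55.1 and 34.5 FPKM and was not called. Aminoacyl-tRNA synthetases, which load amino acids onto tRNA, had a median change of -0.51, and Nars, Gars and Lars were the 3 of 20 that fell (12 after scaling).

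The response element of this pathway is shown because its letters stand in more promoters of the list than of all genes. TGATGNAA, on either strand, was found in 25% of 28 of these genes with a promoter and in 2.31% of all 8626. The 3 members with a match and the largest change lie at chr7:45615597-45615654 on the minus strand (Fgf21, 139 bases before the start site), chr6:7693210-7693257 on the minus strand (Asns, 23 bases) and chr2:119351024-119351081 on the plus strand (Chac1, 193 bases). Capitals mark the match, which reads as its reverse complement in Fgf21 and Chac1. Chac1, an enzyme that degrades glutathione, was at 21.6, 10.4 and 7.53 FPKM and fell as well.
Fgf21: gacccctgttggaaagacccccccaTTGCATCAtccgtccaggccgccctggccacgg
Asns: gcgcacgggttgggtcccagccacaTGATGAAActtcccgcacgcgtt
Chac1: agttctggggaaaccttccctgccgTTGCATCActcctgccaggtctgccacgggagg

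Sterol synthesis was low with exosomes: of 24 measured genes of 25 listed, 14 fell and 0 rose, with a median change of -0.95. That median was -0.69 in replicate 2 and -1.17 in replicate 3. Idi1, which isomerises the isoprenoid unit, was at 60.0, 23.9 and 11.4 FPKM (-1.79 ± 0.34, adjusted p = 0.0183), Fdps at 254, 122 and 66.5 FPKM and Cyp51 at 58.2, 32.2 and 14.7 FPKM. In all of these replicate 3 was clearly below replicate 2. Hmgcs1, which makes the first committed intermediate, was at 105, 55.8 and 30.3 FPKM. The letters TCACNCCAC of the sterol regulatory element were found in 1 of 17 promoters (5.88%), that of Hmgcs1 at chr13:119690189-119690247 on the plus strand, 137 bases before the start site, against 1.15% of all, and they are in capitals here.
Hmgcs1: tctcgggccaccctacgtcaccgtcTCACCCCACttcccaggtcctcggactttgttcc

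In a list of LXR targets and lipid efflux that also holds other sterol genes, 5 of 12 measured members of 16 listed rose and 0 fell (4 and 1 after scaling). The oxysterol-making Ch25h was at 1.64, 6.30 and 4.80 FPKM and the cholesterol-esterifying Soat1 at 18.2, 44.9 and 33.4 FPKM. The phospholipid transfer protein Pltp was at 39.8, 81.8 and 91.9 FPKM. The lysosomal sterol exporter Npc1, which is also in the list of lysosomal genes, rose from 11.7 to 19.1 and 21.9 FPKM. Of 14 measured PPAR and droplet genes 2 rose and 0 fell (1 and 1 after scaling), a count of rises close to the 8.2% of all genes. Plin2, which coats lipid droplets, was at 43.2, 147 and 184 FPKM (1.9 ± 0.21, adjusted p = 0.00657). Angptl4, an inhibitor of lipoprotein lipase, also rose, a call that ended after scaling. In fatty acid synthesis 2 of 16 fell, the desaturase Scd1 (152, 82.6 and 85.9 FPKM) and Mid1ip1, and the list's median change was -0.02.

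**Figure D3:**
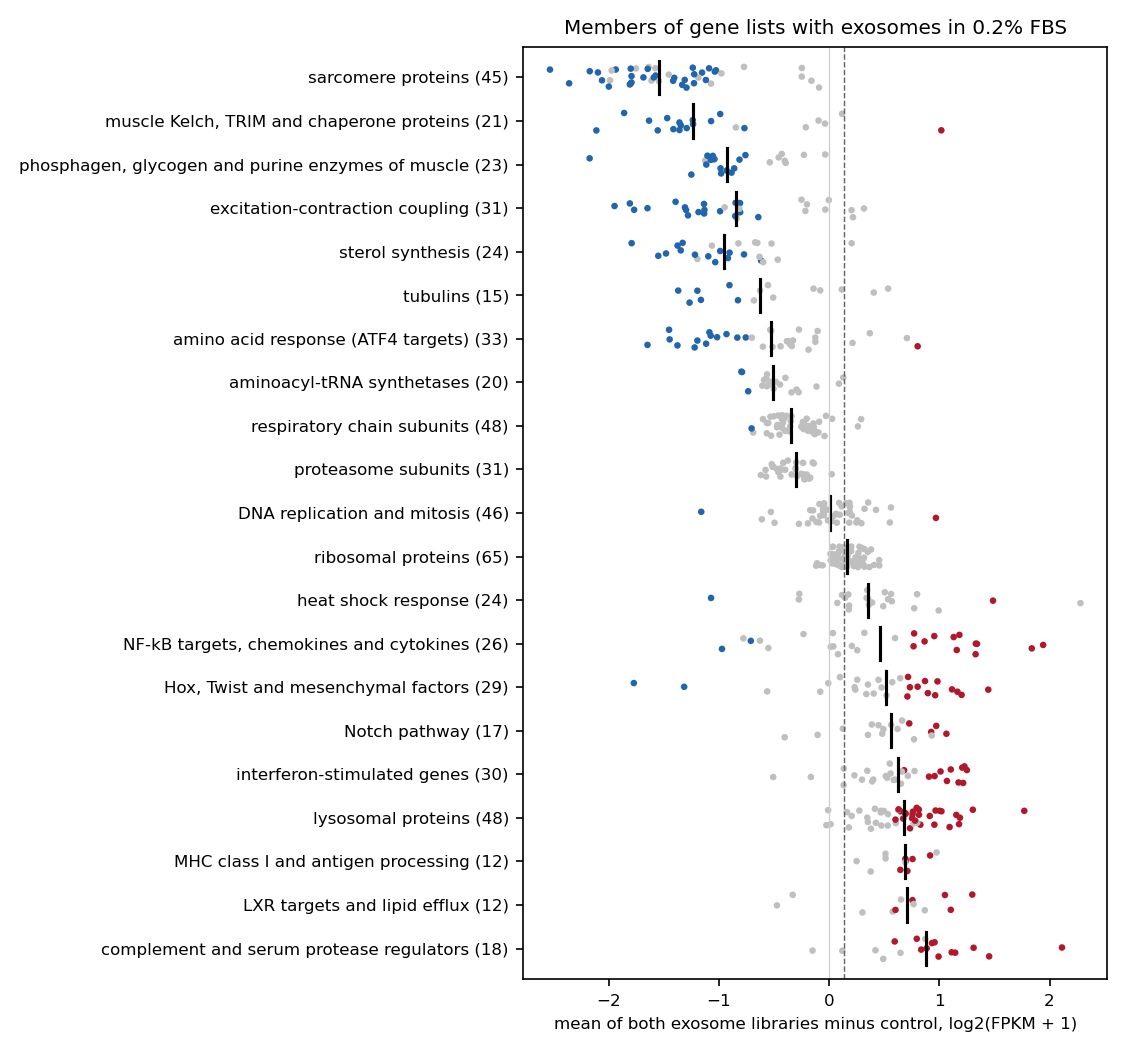
Mean change of log2(FPKM + 1) with exosomes for each measured member of 21 gene lists (points, 1 per gene, with the number measured in parentheses), called lower in blue and higher in red, with the list's median as a black bar and the median of all genes, 0.14, as a dashed line. The medians of sarcomere genes and of Kelch, TRIM and chaperone genes, -1.54 and -1.24, lie lowest, and that of complement genes, 0.88, lies highest.

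Among lysosomal genes, 26 of 48 measured of 53 listed rose and 0 fell, against 8.2% of all genes, with a median change of 0.68. After scaling 18 rose, with a median of 0.55. The hydrolase Naglu was at 13.4 FPKM in the control and at 31.0 and 38.4 FPKM with exosomes (1.30 ± 0.18, adjusted p = 0.00814). The hydrolase Hexa (88.8, 168 and 178 FPKM), the protease Ctsb (242, 501 and 608 FPKM) and progranulin, Grn (101, 219 and 232 FPKM), rose by similar ratios. Both exosome libraries were above the control in all of these genes. Gpnmb, a glycoprotein of lysosomes and melanosomes, rose most, at 8.46, 24.8 and 39.4 FPKM. The cystine exporter Ctns and the calcium channel Mcoln1 of the lysosomal membrane rose as well.

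CACGTG, the core of the element bound by the lysosomal regulators TFEB and TFE3, is the same on both strands and was found in 30.8% of 39 lysosomal promoters and in 10.3% of all. The 3 members with a match and the largest change are shown with the match in capitals, which begins 73, 12 and 49 bases before the start site: Naglu at chr11:101069996-101070051 on the plus strand, Ctsa, which encodes a protective carboxypeptidase, at chr2:164833736-164833772 on the plus strand and Lgmn, which encodes the protease legumain, at chr12:102439111-102439166 on the minus strand. Tfe3 itself was at 11.9, 18.9 and 23.8 FPKM, a rise that ended after scaling.
Naglu: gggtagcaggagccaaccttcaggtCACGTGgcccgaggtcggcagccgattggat
Ctsa: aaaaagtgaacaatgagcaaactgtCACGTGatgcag
Lgmn: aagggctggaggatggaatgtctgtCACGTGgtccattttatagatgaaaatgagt

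Other lists of the endosomal system are set here beside the 8.2% of all genes that rose (4.42% after scaling). Of 18 subunits of the vacuolar proton pump, 3 rose: Atp6v1a (41.6, 88.3 and 85.6 FPKM), the osteoclast form Atp6v0d2 (0.317, 2.98 and 2.1 FPKM) and Atp6v0d1, which ended after scaling. Of 32 measured autophagy genes 1 rose, Gabarapl1 (34.4, 59.5 and 76.6 FPKM), a share below that of all genes. The list's median of 0.15 was 0.001 after scaling. Of 29 measured genes of exosome biogenesis and tetraspanins, 5 rose (4 after scaling), and the list's median of 0.08 was -0.06 after scaling. Tspan7 was at 3.20, 10.1 and 16.3 FPKM, the milk fat globule protein Mfge8 at 51.2, 85.6 and 91.4 FPKM and the exosome marker Cd63 at 1616, 2212 and 2266 FPKM, which was not called.

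Of 46 interferon-stimulated genes listed, 30 passed the limit, 11 rose (10 after scaling) and 0 fell, with a median change of 0.63. In both exosome libraries 28 of the 30 were higher, against 55.2% of all genes tested. Isg15, a ubiquitin-like modifier, was at 2.44 FPKM in the control and at 6.23 and 7.82 FPKM with exosomes (1.22 ± 0.18, adjusted p = 0.00995). Ifit1 and Ifit3, which bind viral RNA, were at 0.888, 2.81 and 2.80 FPKM and at 0.452, 2.24 and 2.00 FPKM. Both exosome libraries were alike for these genes. Ifitm3, which blocks entry of viruses at endosomes, was at 231, 468 and 630 FPKM, and the transcription factors Irf9 and Irf1 rose. Of 12 measured MHC class I and antigen processing genes 6 rose (2 after scaling, H2-T22 and H2-T23). All 12 were higher in both libraries, against 55.2% of all genes tested. These class I genes are near copies of each other, so their split is uncertain.

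The interferon response element is shown for the 3 members with the largest change among those that held it, in each of which it occurred several times. GAAANNGAA, on either strand and with overlaps counted, was found in 39.1% of 23 of these promoters and in 6.93% of all. Capitals mark 3 matches each in Isg15 (chr4:156200851-156200921, minus strand, the first 78 bases before the start site), Ifit3 (chr19:34583349-34583460, plus strand, the first 155 bases before it) and Ifit1 (chr19:34640755-34640838, plus strand, the first 109 bases before it). In Isg15 and at 1 place in Ifit1 the matches overlap.
Isg15: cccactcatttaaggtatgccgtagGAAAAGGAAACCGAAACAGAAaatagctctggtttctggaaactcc
Ifit3: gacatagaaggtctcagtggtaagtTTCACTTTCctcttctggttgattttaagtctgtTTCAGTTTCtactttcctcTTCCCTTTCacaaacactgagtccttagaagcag
Ifit1: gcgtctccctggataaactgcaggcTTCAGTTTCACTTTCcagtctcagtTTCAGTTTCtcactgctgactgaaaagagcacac

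Chemokines and other NF-kB targets rose in 12 of 26 measured genes of 37 listed (9 after scaling) and fell in 2 (3 after scaling). Ccl8 was at 7.68 FPKM in the control and at 30.0 and 30.1 FPKM with exosomes (1.84 ± 0.16, adjusted p = 0.00453), Cxcl1 at 5.46, 16.1 and 35.1 FPKM and Ccl5 at 0.984, 3.69 and 4.39 FPKM. These genes encode attractants of monocytes, neutrophils and T cells. The adhesion receptor Vcam1 rose from 22.6 to 51.6 and 65.7 FPKM and Cxcl12 from 5.36 to 13.1 and 13.7 FPKM. Ptgs2, the inducible cyclooxygenase, fell (18.5, 11.8 and 10.2 FPKM), as did the cytokine Il34, and the negative regulators Tnfaip3 (7.58, 5.33 and 3.88 FPKM) and Nfkbia (11.0, 15.5 and 18.8 FPKM) were not called. GGGNNTTCC, on either strand, was found in 29.4% of 17 of these promoters and in 7.41% of all. Of the 3 members with a match and the largest change, Bcl3 rose (1.79, 3.8 and 3.69 FPKM), and Ccl9 (6.46, 4.10 and 2.70 FPKM) and Tnfaip3 were lower without a call.

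Complement and protease regulators had the highest list median, 0.88, with 12 of 18 measured of 25 listed called higher (9 after scaling) and 0 lower. Serpine2, an inhibitor of thrombin and plasminogen activators, was at 4.81, 16.5 and 35.2 FPKM, and its target Plau at 50.2, 139 and 115 FPKM. The complement inhibitor Serping1 rose from 2.62 to 6.53 and 7.52 FPKM. Tissue factor, F3, was at 41.6, 85.0 and 78.7 FPKM. Both exosome libraries were above the control in 17 of the 18 genes, against 55.2% of all genes tested.

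The 20 largest rises also held genes not described above. Plac8 was at 1.80 FPKM in the control and at 10.2 and 20.7 FPKM with exosomes (2.48 ± 0.33, adjusted p = 0.00766). Kbtbd11, a Kelch protein, was at 3.41, 17.3 and 17.3 FPKM, with no visible gap between both exosome libraries. Gpx3, a secreted glutathione peroxidase of the antioxidant list, was at 15.6, 46.4 and 130 FPKM, Pgf, placental growth factor, at 10.8, 35.6 and 36.2 FPKM and the adenosine receptor Adora2b at 4.61, 14.3 and 21.6 FPKM. Replicate 3 was far above replicate 2 for Gpx3, and both were alike for Pgf. Cpe, a prohormone carboxypeptidase, was at 27.7, 85.7 and 83.6 FPKM, Mmd at 24.7, 71.5 and 87.8 FPKM and Nsg1 at 8.93, 20.6 and 41.5 FPKM. Anpep, an aminopeptidase, was at 7.34, 16.1 and 43.9 FPKM, a rise that ended after scaling. Fos and Hspa1b were in this set by their mean but were not called, and are described with the differences between libraries.

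Of 31 measured matrix proteins other than collagens, 10 rose (8 after scaling) and 1 fell (2 after scaling). Mgp, which inhibits calcification, was at 349, 801 and 1349 FPKM, the basement membrane linker Nid1 at 76.6, 162 and 145 FPKM and Cthrc1 at 3.93, 8.88 and 16.5 FPKM, while thrombospondin 1, Thbs1, fell from 336 to 176 and 163 FPKM. Of 17 collagen genes Col16a1 rose and Col8a1 fell, and Col1a1 was at 88.4, 120 and 120 FPKM with no call. Of 20 measured matrix proteases and inhibitors 6 rose and 0 fell. The membrane protease Mmp14 was at 114, 255 and 283 FPKM, the inhibitor Timp3 at 18.5, 49.0 and 63.7 FPKM and Mmp2 at 112, 200 and 199 FPKM, which ended after scaling.

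Signalling pathways that restrain or accompany differentiation showed both directions. In the Notch pathway, which keeps myoblasts undifferentiated, 4 of 17 measured genes rose and 0 fell: the receptors Notch2 (11.5, 20.1 and 19.3 FPKM) and Notch3 (16.1, 30.8 and 34.4 FPKM) and the ligands Dll1 (5.59, 13.1 and 12.5 FPKM) and Jag1 (1.78, 4.36 and 4.22 FPKM). Their target Hes1 was at 11.5, 24.2 and 17.1 FPKM (adjusted p = 0.0501). In the TGF-beta and BMP pathway 6 of 30 rose and 1 fell, but after scaling 4 were called higher and 5 lower and the list's median went from 0.12 to -0.03, so it had no direction of its own. The BMP antagonist Grem1 rose from 14.6 to 36.7 and 48.2 FPKM, the MyoD inhibitor Id1 from 15.7 to 29.3 and 42.6 FPKM and Id3 from 15.0 to 37.9 and 123 FPKM, of which Id3 ended after scaling. Fst, the activin and myostatin antagonist follistatin, fell from 18.7 to 10.4 and 4.87 FPKM.

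Igf2, an autocrine growth factor of differentiating myoblasts, fell from 224 FPKM to 73.1 and 86.9 FPKM (-1.48 ± 0.21, adjusted p = 0.00863), and Deptor, an inhibitor of mTOR, from 20.1 to 9.55 and 12.4 FPKM. In the same list of 20 measured insulin-like growth factor genes 3 rose, the adaptor Irs2 (1.40, 4.27 and 3.47 FPKM) and, ending after scaling, Irs1 and Igfbp2. The binding protein Igfbp5 was at 571, 1304 and 2087 FPKM and was not called (adjusted p = 0.0663). In the Wnt pathway 3 of 19 fell, against 4.33% of all genes, among them Porcn, which lipidates Wnt ligands (59.0, 27.3 and 17.2 FPKM). Of the same genes 1 rose (0 after scaling), against 8.2% of all genes, and the list's median change was 0.36. Among ephrins and their receptors 5 of 14 rose (4 after scaling), among them Efna4 (2.37, 5.87 and 8.68 FPKM) and Ephb4 (6.39, 12.6 and 15.4 FPKM), and Epha4 fell from 3.78 to 1.85 and 1.06 FPKM.

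Homeobox, Twist and other mesenchymal factors rose in 12 of 29 measured genes of 34 listed (10 after scaling) and fell in 2 (3 after scaling). Twist2, which represses MyoD activity, was at 2.51, 6.83 and 7.31 FPKM (1.20 ± 0.17, adjusted p = 0.00848), Snai2 at 8.88, 19.4 and 21.5 FPKM and Sox4 at 19, 49.2 and 57.8 FPKM. Hoxc6, Hoxc10, Hoxc11 and Hoxc13 rose, with changes between 0.77 and 1.35 in single libraries. Sox11 fell from 15.8 to 4.56 and 3.35 FPKM and Tbx15 from 33.8 to 15.0 and 11.3 FPKM, so members of the Sox family changed in opposite directions.

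Genes of proliferation did not move as a group. Of 46 measured genes of DNA replication and mitosis, 1 fell, the ribonucleotide reductase Rrm2 (50.5, 20.6 and 23.6 FPKM), and 1 rose, Gins3 (2.25, 5.07 and 5.66 FPKM). The list's median change was 0.01, which was -0.11 after scaling and -0.04 in replicate 2 alone. Of 18 measured genes of cell cycle exit, 2 fell, the inhibitor Cdkn1c (2.94, 0.582 and 0.277 FPKM) and the retinoblastoma gene Rb1 (36.6, 23 and 22.9 FPKM), and Gas1 rose from 79.7 to 143 and 194 FPKM. Cdkn1a, the inhibitor induced in differentiation, was at 1009, 486 and 444 FPKM and was called lower only after scaling (adjusted p = 0.0687 before). Among 22 measured p53 targets 1 fell and 3 rose, against 4 lower and 2 higher after scaling. Among 28 antioxidant genes 3 fell and 3 rose, against 3 lower and 1 higher after scaling. In the osmotic list 2 of 10 rose, the inositol transporter Slc5a3 (1.80, 17.7 and 6.44 FPKM) and Sord, which makes fructose from sorbitol (10.3, 23.1 and 35.4 FPKM). Of 29 SRF and YAP targets Ankrd1 (942, 353 and 229 FPKM) and Abra fell, both of them muscle genes, while the cytoskeletal Zyx (139, 272 and 226 FPKM) and Flna (131, 244 and 213 FPKM) were not called.

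Heat shock genes differed between both exosome libraries. The list's median change was 0.61 in replicate 2 and 0.03 in replicate 3. Hspa1b, the inducible HSP70, was at 1.9 FPKM in the control, 30.0 FPKM in replicate 2 and 5.39 FPKM in replicate 3 (2.28 ± 0.71, adjusted p = 0.0685), and its reads can be split with the near-identical Hspa1a. The co-chaperone Hsph1 was at 37.7, 174 and 33.0 FPKM, and Hsp90aa1 at 238, 510 and 245 FPKM. Replicate 3 was thus near the control for Hsph1 and Hsp90aa1, and replicate 2 was high for all 3 genes. Of 24 measured members Dnajb1 rose (12.5, 55.0 and 24.4 FPKM), which ended after scaling, and the muscle chaperone Hspb8 fell (269, 140 and 117 FPKM). Chaperones of the endoplasmic reticulum had medians of 0.46 and -0.01 in replicates 2 and 3, with 0 of 23 called, and Hspa5, their main HSP70, was at 381, 675 and 287 FPKM.

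A heat shock element, GAANNTTC on either strand, was found in 31.6% of 19 promoters of this list and in 5.89% of all 8626. The 3 members with a match and the largest mean change are shown, of which Hspa1b and Dnaja1 were much higher in replicate 2 than in replicate 3 and Fkbp4 less so: Hspa1b at chr17:34959310-34959367 on the minus strand, with the match 104 bases before the start site, Dnaja1 at chr4:40722319-40722376 on the plus strand, 124 bases before it, and Fkbp4 at chr6:128438775-128438832 on the minus strand, 151 bases before it. Dnaja1, a co-chaperone, was at 32.5, 78.0 and 40.3 FPKM and Fkbp4, which works with HSP90, at 54.6, 91.4 and 71.9 FPKM. Capitals mark the match.
Hspa1b: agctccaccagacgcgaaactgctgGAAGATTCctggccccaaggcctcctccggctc
Dnaja1: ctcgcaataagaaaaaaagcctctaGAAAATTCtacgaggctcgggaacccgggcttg
Fkbp4: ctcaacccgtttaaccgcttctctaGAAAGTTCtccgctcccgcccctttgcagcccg

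Several immediate-early genes, which respond to serum within minutes, were high in the other exosome library, some of them chosen here for that gap. Fos was at 3.04 FPKM in the control, 8.03 FPKM in replicate 2 and 100 FPKM in replicate 3 (2.90 ± 1.06, adjusted p = 0.105), Fosb at 0.635, 1.47 and 15.2 FPKM and Zfp36 at 11.3, 14 and 47.0 FPKM. Ier2 (21.9, 19.3 and 61.3 FPKM) and Junb (39.9, 41.9 and 106 FPKM) were near the control in replicate 2 and far above it in replicate 3. Of 32 measured members 3 rose, a share near the 8.2% of all genes, and 1 fell. Socs3 (11.1, 30.3 and 63.3 FPKM), Ier3 and Dusp6 rose, the last pair ending after scaling, and Gadd45b fell from 26.5 to 15.2 and 15.1 FPKM. The list's median change was 0.13 in replicate 2 and 0.52 in replicate 3. With 1 library of each, differences between both exosome libraries carry no test.

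Other genes with a wide gap between both exosome libraries at a mean of 10 FPKM or more over these 3 libraries were the ephrin Efnb2 (6.70, 24.2 and 5.57 FPKM), Rgs2, a regulator of G protein signalling (3.65, 7.47 and 26 FPKM), and the adhesion receptor Gpr56 (29.5, 12.9 and 3.82 FPKM), of which Gpr56 fell with exosomes.

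**Figure D4:**
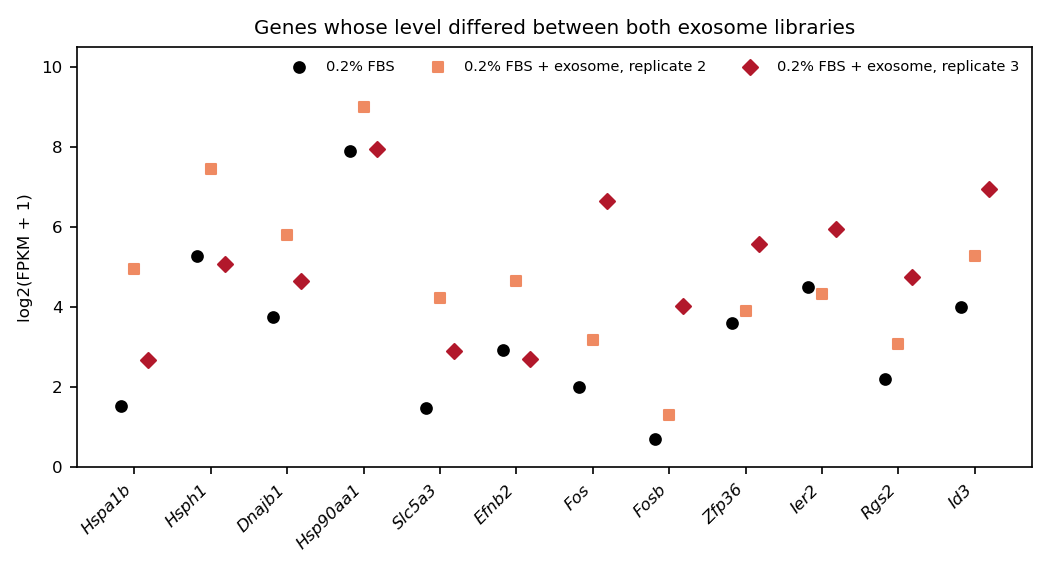
log2(FPKM + 1) of 12 genes in the 0.2% FBS control (circle) and in 0.2% FBS + exosome replicates 2 (square) and 3 (diamond), 1 library each. Hspa1b, Hsph1, Dnajb1, Hsp90aa1, Slc5a3 and Efnb2 are highest in replicate 2, and Fos, Fosb, Zfp36, Ier2, Rgs2 and Id3 are highest in replicate 3.

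The effect of exosomes in 0.2% FBS was compared with that in 2% HS, where 1 library with exosomes was compared with 1 without. limma called the effect in 0.2% FBS higher for 32 genes (0.298%) and lower for 93 (0.867%). Of the 93 genes, 75 also fell in 0.2% FBS, and of the 32 genes 31 also rose there. These calls compare the libraries at hand: each group but one has 1 library, the error in 2% HS is assumed equal to that of both exosome libraries in 0.2% FBS, and no difference between the media as such follows from them.

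Sarcomere genes had a median change of -1.54 in 0.2% FBS and of 0.05 in 2% HS, and the difference was called for 11 of 45 (3 without the mean-variance trend of limma and 0 with every entry above 0 kept, where 13 had an unadjusted p under 0.05). For Csrp3 the change was 0.99 in 2% HS, a difference between media of -3.52 (adjusted p = 0.0172), and for Tcap it was 0.27, a difference of -2.07 (adjusted p = 0.0175). Cox6a2 showed a change of 1.09 in 2% HS, and its share of Cox6a1 + Cox6a2 was 32.7% without and 57.3% with exosomes there. These genes were thus lower with exosomes in 0.2% FBS and level or higher in 2% HS.

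For amino acid response genes the median change was -0.53 in 0.2% FBS and 0.96 in 2% HS, and the difference was called for 19 of 33 (12 without the mean-variance trend of limma and 0 with every entry above 0 kept, where 26 had an unadjusted p under 0.05). Trib3 had changes of -1.17 and -1.07 in 0.2% FBS and of 2.43 in 2% HS (difference -3.55, adjusted p = 0.0036), and Asns of -1.38 and -1.51 against 1.13 (difference -2.58, adjusted p = 0.0143). Both genes fell in one medium and were higher in the other. Sterol synthesis was low in both: its median change was -0.95 in 0.2% FBS and -1.13 in 2% HS, and the difference was called by limma for 0 of 24, with 2 at an unadjusted p under 0.05. Idi1 had a change of -1.93 in 2% HS. Lysosomal genes had a median change of 0.68 in 0.2% FBS and of -0.02 in 2% HS, but limma called the difference for 0 of 48, with 30 at an unadjusted p under 0.05.

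**Figure D5:**
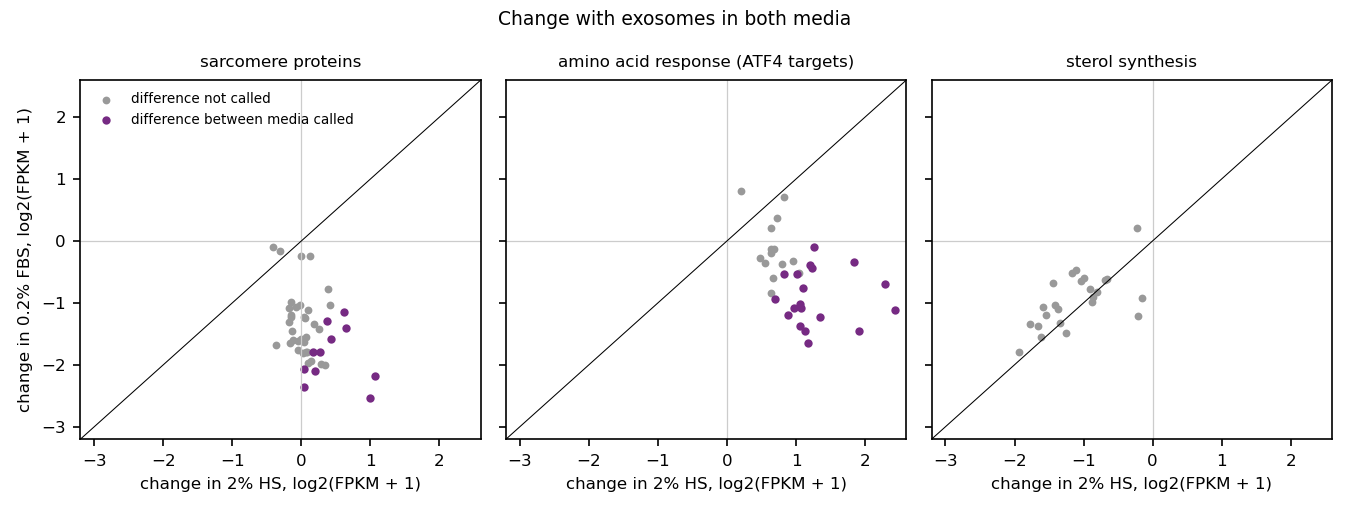
Change of log2(FPKM + 1) with exosomes in 2% HS (horizontal, 1 library minus 1) and in 0.2% FBS (vertical, mean of 2 libraries minus 1) for the measured genes of 3 lists, with purple points where limma called the difference between media and a line of equal change. Sarcomere genes spread below the line near 0 on the horizontal axis, amino acid response genes lie to the lower right, and sterol genes lie low in both media.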

How the data were processed

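The authors trimmed reads with cutadapt 1.9.1, aligned them to mm10 with TopHat2 2.1.0 and deposited FPKM per gene from Cufflinks, 1 value per library in 6 libraries. The gene annotation and the strand setting are not given in the sources used here. FPKM keep no depth, so reads per library were estimated from the spacing of low values. Of 20950 entries, 10 with a repeated name were left out (5 with a mean of at least 1 FPKM), and genes averaging 1 FPKM or more over 6 libraries were kept. Values were log2(FPKM + 1). limma 3.58.1 in R 4.3.3, with a mean-variance trend, was fitted on all 6 libraries in 5 conditions with Benjamini-Hochberg adjustment (call under 0.05), which leaves 1 residual degree of freedom, from the exosome pair, and the contrasts were exosomes against none in 0.2% FBS and its difference from that in 2% HS. The 45 gene lists, 27 pairs of related genes, 10 marker lists and the members were chosen with earlier results of these data known. Named genes were the 20 largest falls and 20 largest rises beyond 1 in each exosome library, the 10 with the largest gap between exosome libraries at a mean of at least 10 FPKM over the 3 libraries, and members of these lists as examples. Sequences were read from RefSeq (GRCm38.p6), in which 8626 of 10726 genes had a listed promoter. Alternatives were a pseudocount of 0.1, other limits on low values, 75th percentile scaling, each exosome library alone, a fit on 3 libraries and no trend. Python 3.11.15 and pandas 2.3.3 were used for counts. Some members of the lists are counted but not reported by name here.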

Additional observations from a re-analysis of the deposited data

Results flagged for a closer look

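For 48 of the genes named above, limma called a difference between the exosome effect in 0.2% FBS and that in 2% HS, where 1 library stands on each side. Values here subtract the change seen in 2% HS from the one seen in 0.2% FBS, both on the log2 scale, so a negative value is a lower effect in 0.2% FBS. Their adjusted p-values were between 0.0036 and 0.0481, and the error in 2% HS was not measured.

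Contractile and Z-disc genes were lower in 0.2% FBS. The difference was -3.522 for Csrp3, -3.239 for Myh8, -2.404 for Myh4, -2.296 for Actn2 and -2.098 for Lmod2. It was -2.070 for Tcap, -2.048 for Myh7, -1.965 for Lmod3, -1.777 for Myh6, -2.489 for Myo18b and -1.863 for Smpx. Other muscle genes followed, with -3.265 for Cox6a2, -2.874 for Tceal7 and -2.239 for Murc. The muscle regulators differed by -2.074 for Mef2c, -1.623 for Rbm24 and -1.584 for Smyd1.

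Amino acid response genes were lower in 0.2% FBS and higher with exosomes in 2% HS. The difference was -3.549 for Trib3, -2.819 for Fgf21, -2.580 for Asns and -2.565 for Aldh1l2. It was -2.429 for Mthfd2, -2.146 for Phgdh, -2.086 for Chac1, -2.081 for Slc7a5, -2.052 for Psat1, -1.866 for Psph and -1.634 for Slc7a1.

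Among other genes lower in 0.2% FBS, the difference was -3.149 for Chil1, -3.021 for Ces2c, -2.571 for 8430408G22Rik, -2.507 for Dclk1 and -2.352 for Sox11. It was -2.146 for Igf2, -2.127 for Cdkn1c, -1.940 for Spink4, -1.543 for Ptgs2 and -1.400 for Mid1ip1.

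The effect was higher in 0.2% FBS for 10 genes named. The difference was 2.478 for Kbtbd11, 1.966 for Adora2b, 1.842 for Mmd, 1.816 for Pgf and 1.760 for Plau. It was 1.745 for Cpe, 1.621 for Gins3, 1.618 for Ccl8, 1.453 for Sox4 and 1.411 for Eno2. In these genes the change in 2% HS lay between -0.652 and 0.220.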

How the results depend on the processing

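Counts called by limma with exosomes in 0.2% FBS moved by over 1.5 times under 2 alternatives, the limit on low values and scaling. With every entry above 0 kept, limma called 0 genes higher and 0 lower with exosomes (3120 at an unadjusted p under 0.05), and 0 and 0 for the difference between media (2275 unadjusted), and the cause was not tested. After 75th percentile scaling the counts were 474 higher and 730 lower, 154 lower for the difference between media, and 46 and 106 genes higher by over 1 in each library and on the mean. With a pseudocount of 0.1 these last counts were 193 and 353, and 58 effects were higher in 0.2% FBS than in 2% HS. Without the mean-variance trend the difference between media was called for 5 genes higher and 40 lower.

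The median change over all genes, 0.14, was 0.032 with every entry above 0 kept, -0.002 after scaling, and 0.095 to 0.176 in single exosome libraries. Counts beyond 1 ranged from 155 to 312 higher and from 183 to 305 lower in single libraries, with replicate 3 giving the larger ones. Leaving out an exosome library leaves limma no residual degrees of freedom, so no value was given. No paired analysis was made, because the labels state no pairing and 0.2% FBS alone has 1 library. Of 45 list medians, 8 changed sign after scaling, 2 without replicate 2 and 2 without replicate 3. With a pseudocount of 0.1 or with the other limits on low values 0 changed sign. Of 235 genes named, 197 were called, 16 lost the call after scaling and 18 without the trend, and 0 of those called changed direction under the alternatives run. Of the genes named but not called, 7 changed sign. In single exosome libraries Hsph1 ranged from -0.188 to 2.175, Efnb2 from -0.228 to 1.708, Hspa5 from -0.404 to 0.824 and Cav1 from -0.121 to 0.754, each lower in replicate 3. Actn4 ranged from -0.003 to 0.191 and Tln1 from -0.048 to 0.056, also lower in replicate 3, and Ier2 from -0.172 to 1.446, lower in replicate 2. After scaling Actn4 was at -0.064 and Tln1 at -0.153. A single control library and estimated depths limit what small changes can show: the smallest change called was 0.568.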
